A study of Mus musculus with 6 samples.

Results

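The contactins and the contactin-associated proteins (CASPR proteins) were examined in the vestibular sensory epithelium of mice exposed to 3,3'-iminodipropionitrile (IDPN), a nitrile toxic to hair cells (HCs), the sensory receptors of the vestibular organs. The 9 genes were taken by symbol from the 52636 genes of the deposited count table. They were the contactins Cntn1, Cntn2, Cntn3, Cntn4, Cntn5 and Cntn6 and the CASPR genes Cntnap1, Cntnap2 and Cntnap4. Bulk RNA-seq compared 3 Control animals, which drank plain water, with 3 IDPN animals, which drank water with 30 mM IDPN for 8 weeks. All 6 were male 129S1/SvImJ mice of the same batch label, aged 2 to 4 months when exposure began, by the study's methods. Each library held the pooled 2 utricles and 6 cristae of 1 animal. The question was whether the genes of these 2 protein families change under the chronic exposure. Animal codes in the sample titles begin alike for the 3 Control animals, with another beginning for IDPN 2 and IDPN 3 and a further one for IDPN 1. Between Control and IDPN, whatever that code marks cannot be told apart from the treatment.

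Contactins are cell adhesion proteins of the immunoglobulin superfamily that are held to the outer face of the membrane by a lipid anchor. CASPR proteins span the membrane and pair with contactins on the axon. At the paranode, next to the node of Ranvier, contactin-1 and CASPR1 form septate-like junctions with glial neurofascin, and at the neighbouring juxtaparanode contactin-2 and CASPR2 hold voltage-gated potassium channels in place. In the vestibular epithelium, CASPR1 is known from the calyceal junction, the contact between a type I HC and the cup-shaped afferent terminal, the calyx, that encloses it. The cell bodies of the afferent neurons lie in the vestibular ganglion, away from the dissected epithelium.

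The genes differed widely in position and size. On GRCm38, Cntn3 (chromosome 6, 102162655 to 102573101), Cntn6 (104492790 to 104863406) and Cntn4 (105677660 to 106699310) lay in that order on chromosome 6. Only 1 protein-coding gene stood between Cntn3 and Cntn6, and none between Cntn6 and Cntn4. Cntnap2 (45059357 to 47304213), which spans 2244.9 kb, lay on the same chromosome, 54.86 Mb before Cntn3. Cntn1 (chromosome 15, 92051165 to 92341967), Cntn2 (chromosome 1, 132509427 to 132543256), Cntn5 (chromosome 9, 9660891 to 10904775), Cntnap1 (chromosome 11, 101170523 to 101190724) and Cntnap4 (chromosome 8, 112570043 to 112882717) were each on a chromosome of their own. Exons of Cntnap1 overlapped those of Plekhh3 on the opposite strand by 233 bp, and exons of Cntn5 and Cntnap4 overlapped antisense transcripts by 290 and 503 bp. The protocol does not mark strand, so reads from those stretches could come from either gene. The antisense gene at Cntnap4, Gm45904, had between 0 and 16 counts a library. Plekhh3 had 12, 47 and 62 counts (Control 1 to 3) against 86, 132 and 94 (IDPN 1 to 3). Cntnap1 had 11 to 35 counts a library.

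Promoter windows in RefSeq (GRCm38.p6), from 250 bases before to 50 bases after an annotated start, were matched for 7 of the 9 genes. None was matched for Cntnap1 and Cntnap4. The windows of the most abundant member and of the 3 members that kept their call under every alternative are shown, each the one nearest to the gene's 5′ end, with matches to the CCAAT box, the GC box (GGGCGG) and the TATA box (TATAAA) on either strand in capitals.
Cntn1 (chr15:92050915-92051214, plus strand): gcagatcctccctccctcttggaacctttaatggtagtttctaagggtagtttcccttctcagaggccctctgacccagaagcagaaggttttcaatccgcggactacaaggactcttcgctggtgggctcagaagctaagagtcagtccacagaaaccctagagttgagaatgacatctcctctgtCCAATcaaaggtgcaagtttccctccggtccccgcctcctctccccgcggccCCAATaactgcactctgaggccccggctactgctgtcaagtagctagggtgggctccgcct
Cntn4 (chr6:106118515-106118814, plus strand): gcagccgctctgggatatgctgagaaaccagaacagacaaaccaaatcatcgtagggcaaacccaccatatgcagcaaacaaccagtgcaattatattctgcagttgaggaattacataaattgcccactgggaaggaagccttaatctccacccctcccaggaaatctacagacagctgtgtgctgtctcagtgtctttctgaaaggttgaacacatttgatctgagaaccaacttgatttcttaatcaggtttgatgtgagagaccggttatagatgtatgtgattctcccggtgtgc
Cntn6 (chr6:104492794-104493093, plus strand): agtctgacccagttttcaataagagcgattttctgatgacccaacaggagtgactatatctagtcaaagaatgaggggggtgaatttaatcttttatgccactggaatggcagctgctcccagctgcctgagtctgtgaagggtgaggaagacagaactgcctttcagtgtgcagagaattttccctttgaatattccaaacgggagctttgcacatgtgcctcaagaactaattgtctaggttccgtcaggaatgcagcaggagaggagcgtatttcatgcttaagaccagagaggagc
Cntnap2 (chr6:45059811-45060110, plus strand): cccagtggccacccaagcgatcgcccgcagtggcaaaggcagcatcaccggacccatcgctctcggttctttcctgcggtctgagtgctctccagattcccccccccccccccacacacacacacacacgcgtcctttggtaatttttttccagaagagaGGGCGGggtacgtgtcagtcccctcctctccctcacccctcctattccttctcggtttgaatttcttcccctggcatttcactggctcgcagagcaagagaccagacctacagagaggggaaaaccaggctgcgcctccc
The Cntn1 window held CCAAT in 2 places, a motif found in 37.4% of all 32851 RefSeq windows. The Cntnap2 window held GGGCGG, found in 35.7% of them, and the Cntn4 and Cntn6 windows shown held none of the 3 motifs. CpG dinucleotides were sparse in these Cntn4 and Cntn6 windows, with 4 in each and an observed over expected ratio of 0.264 and 0.254, against a median of 0.384 over all windows. Cntn1 had 9 (0.402) and Cntnap2 had 14 (0.567). RefSeq gives Cntn4 a pair of starts, 441.1 and 441.3 kb inside the gene as GENCODE draws it. The window of the later start (chromosome 6, 106118692 to 106118991), which overlaps the one shown, held a CCAAT box and 12 CpG dinucleotides, with an observed over expected ratio of 0.640. RefSeq also gives Cntnap2 a start 2185.0 kb into the gene, near its 3′ end, and the counts per gene do not separate transcripts that begin at these starts.

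Levels of different genes were compared per length, in TPM, computed here from the counts and the exon length of each gene so that all libraries have the same sum. Cntn1 was by far the most abundant member. Its level was 55.4, 57.2 and 77.3 TPM (Control 1 to 3) against 63.0, 50.7 and 56.3 (IDPN 1 to 3). In Control it stood at percentile 95.4 of the 25630 genes with a count. Cntnap4, a CASPR gene described at synapses of inhibitory interneurons in the brain, came next, at 15.5 ± 5.70 (Control) and 11.0 ± 5.34 (IDPN; SD, n = 3 each). Cntnap2 (3.90 ± 0.777 and 1.88 ± 0.386), Cntn6 (3.29 ± 1.26 and 1.20 ± 0.410) and Cntn4 (2.04 ± 0.427 and 0.721 ± 0.524) followed in both groups. Below 1 TPM were Cntn3 (0.791 ± 0.267 and 0.570 ± 0.226), Cntnap1 (0.230 ± 0.114 and 0.191 ± 0.0374), Cntn5 and Cntn2. The ranges of Cntnap2 and Cntn6, of Cntn6 and Cntn4 and of Cntn5 and Cntn2 overlapped in both groups, those of Cntnap1 and Cntn5 in Control and those of Cntn4 and Cntn3 in IDPN, so the spread between libraries does not separate these neighbours. Within a library, Cntnap2 was above Cntn6 and Cntn6 above Cntn4 in 3 of 3 libraries of each group. The ranges of the other neighbours stood apart. With the length of the longest transcript in place of the exon length, Cntn6 and Cntnap2 changed places.

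The member best known from the calyx was barely present as RNA. Cntnap1, which encodes CASPR1, had 34, 35 and 11 counts (Control 1 to 3) against 19, 17 and 24 (IDPN 1 to 3), in libraries of 40474847 to 43566332 counts. The 13 markers of afferent neurons were uneven. Over all 6 libraries, normalized counts of Tubb3 ran from 4.97 to 18.2, of Stmn2 from 2.80 to 18.2, of Gap43 from 0 to 4.45 and of Thy1 from 0 to 4.14. Nefh (0 to 9.79), Slc17a6 (9.70 to 33.8), Prph (4.85 to 46.3) and Rbfox3 (41.2 to 83.7) were also low. The other markers of the list were well represented, with 1936 to 3213 for Nefl, 702 to 1346 for Nefm, 797 to 1389 for Isl1, 295 to 722 for Snap25 and 216 to 458 for Syt1. HC markers were abundant, with normalized counts of Pou4f3, the transcription factor of HC survival, from 3105 to 6831. The 9 genes are described by symbol, without assigning them to the calyx or to another cell.

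After IDPN, 4 of the 9 genes were downregulated and 0 were upregulated by DESeq2, where a call needed an adjusted p (Padj) under 0.05 and a fold change above 1.5. They were Cntn4, Cntn6, Cntnap2 and Cntnap4. Of all 17650 genes with a Padj, 3.42% were called lower and 2.32% higher, 5.75% in all. Of the 940 such genes on chromosome 6, where 3 of the called members lie, 3.4% were called lower. The edgeR quasi-likelihood test called Cntn4, Cntn6 and Cntnap2 lower, where it called 2.19% of 16310 genes lower and 1.02% higher, and it called 0 members higher. At an unadjusted p under 0.05, both tools gave 6 members lower and 0 higher, where DESeq2 gave 9.15% of all genes lower and 7.77% higher and edgeR 9.12% and 8.57%. With total-count size factors 3 members were lower at that p and 0 higher, against 2.96% and 15.8% of all genes. The 7 members with a Padj all had a negative log2-Fold_Change, with a median of −0.86, against a median of 0.02 over all genes with a Padj, of which 48.4% were negative. For 6 of the 7, every IDPN library lay below every Control library in normalized counts, which held for 11.4% of all genes with a Padj. That separation depends on the size factors. In TPM, Cntn4, Cntn6 and Cntnap2 stayed apart, while Cntn1, Cntn3 and Cntnap4 overlapped between groups. The lowest Control and highest IDPN values were 55.4 and 63.0 for Cntn1, 0.522 and 0.729 for Cntn3, and 11.9 and 17.2 for Cntnap4. In bulk tissue, fewer cells of a type and less RNA per cell cannot be told apart.

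Among the contactins with a Padj, Cntn4 had the most negative log2-Fold_Change. This contactin, also known as BIG-2, takes part in axon wiring and binds the amyloid precursor protein. Its normalized counts were 340, 382 and 361 (Control 1 to 3) against 156, 38.2 and 90.5 (IDPN 1 to 3). The groups did not overlap, and IDPN 2 lay lowest. The means were 361 ± 21.2 and 94.8 ± 58.8 (SD, n = 3 each), 3.81 times higher in Control, and the log2-Fold_Change was −1.92 (SE 0.36; DESeq2 Padj = 1.25e-05; edgeR adjusted p = 0.0304). Without IDPN 1 the log2-Fold_Change was −2.48, and without IDPN 2 it was −1.55.

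Cntn6, or NB-3, is the neighbour of Cntn4 on the chromosome and can act as a ligand of Notch. Normalized counts were 474, 324 and 516 (Control 1 to 3) against 156, 113 and 106 (IDPN 1 to 3). The lowest Control library was more abundant than the highest IDPN library, and the IDPN libraries lay close together. The means were 438 ± 101 and 125 ± 26.6 (SD, n = 3 each), 3.50 times higher in Control. The log2-Fold_Change was −1.81 (SE 0.26, DESeq2 Padj = 9.80e-10; edgeR adjusted p = 0.00395).

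Cntn1, the partner of CASPR1 in paranodal junctions, had normalized counts of 12622, 12337.5 and 12403 (Control 1 to 3) against 8515, 8929 and 8800 (IDPN 1 to 3). On this scale libraries of a group lay close together and the groups did not overlap, while in TPM they overlapped. The log2-Fold_Change of −0.51 (SE 0.13, 95% interval −0.77 to −0.25) had a DESeq2 Padj of 0.00452 but stayed inside the fold-change threshold, so Cntn1 was not called. It also missed the threshold on adjusted p with edgeR (0.104) and with size factors proportional to total counts (log2-Fold_Change −0.26, DESeq2 Padj = 0.492).

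The remaining contactins were scarce. Cntn3, or BIG-1, the third contactin of the chromosome 6 group, had normalized counts of 84.9, 122 and 121 (Control 1 to 3) against 70.3, 39.2 and 74.7 (IDPN 1 to 3). The groups did not overlap, and the log2-Fold_Change of −0.83 (SE 0.36, 95% interval −1.54 to −0.12) did not pass (DESeq2 Padj = 0.179). Cntn5, or NB-2, had 7, 0 and 14 counts (Control 1 to 3) against 3, 0 and 1 (IDPN 1 to 3). Cntn2, the contactin of the juxtaparanode, had 4, 0 and 0 counts (Control 1 to 3) against 1, 1 and 5 (IDPN 1 to 3). Both genes overlapped between groups, lay below the mean at which DESeq2 assigns a Padj, and were too low for a difference to be detectable at this depth.

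Among the CASPR genes, Cntnap2, which encodes the CASPR2 protein of potassium channel clusters, had the lowest p of all members. Normalized counts were 834, 831 and 836 (Control 1 to 3) against 327, 280 and 332 (IDPN 1 to 3). On this scale the 3 Control libraries were almost equal, and all 3 IDPN libraries lay far below them. In TPM the Control libraries spread more, from 3.37 to 4.80, against 1.46 to 2.23 in IDPN. The means were 834 ± 2.67 and 313 ± 28.7 (SD, n = 3 each), 2.66 times higher in Control, and the log2-Fold_Change was −1.41 (SE 0.18; DESeq2 Padj = 8.55e-13; edgeR adjusted p = 0.00109). Leaving out any 1 library kept it between −1.46 and −1.34.

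Cntnap4 had normalized counts of 1914, 1706 and 2362 (Control 1 to 3) against 1544, 899 and 849 (IDPN 1 to 3). The groups did not overlap, but IDPN 1 lay nearer to Control 2 than to the other IDPN libraries. The means were 1994 ± 335 and 1097 ± 388 (SD, n = 3 each), and the log2-Fold_Change was −0.86 (SE 0.24, DESeq2 Padj = 0.00791). This call was lost with edgeR (adjusted p = 0.0844), with total-count size factors (log2-Fold_Change −0.60, DESeq2 Padj = 0.275) and in a test against a fold of 1.5. It was also lost without Control 3 (−0.72, DESeq2 Padj = 0.0572), IDPN 2 (−0.74, 0.0729) or IDPN 3 (−0.71, 0.123).

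Cntnap1 could not be called in either direction. Its normalized counts were 41.2, 40.4 and 9.79 (Control 1 to 3) against 15.7, 17.1 and 22.4 (IDPN 1 to 3), so that Control 3 was the lowest library of all. The log2-Fold_Change was −0.72 (SE 0.65, DESeq2 Padj = 0.654), and its 95% interval ran from a level 0.253 times that of Control to 1.46 times. Plekhh3, whose exons overlap those of Cntnap1, had more counts in every IDPN library than in any Control library. Whether its reads entered the Cntnap1 counts was not tested.

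**Figure D1:**
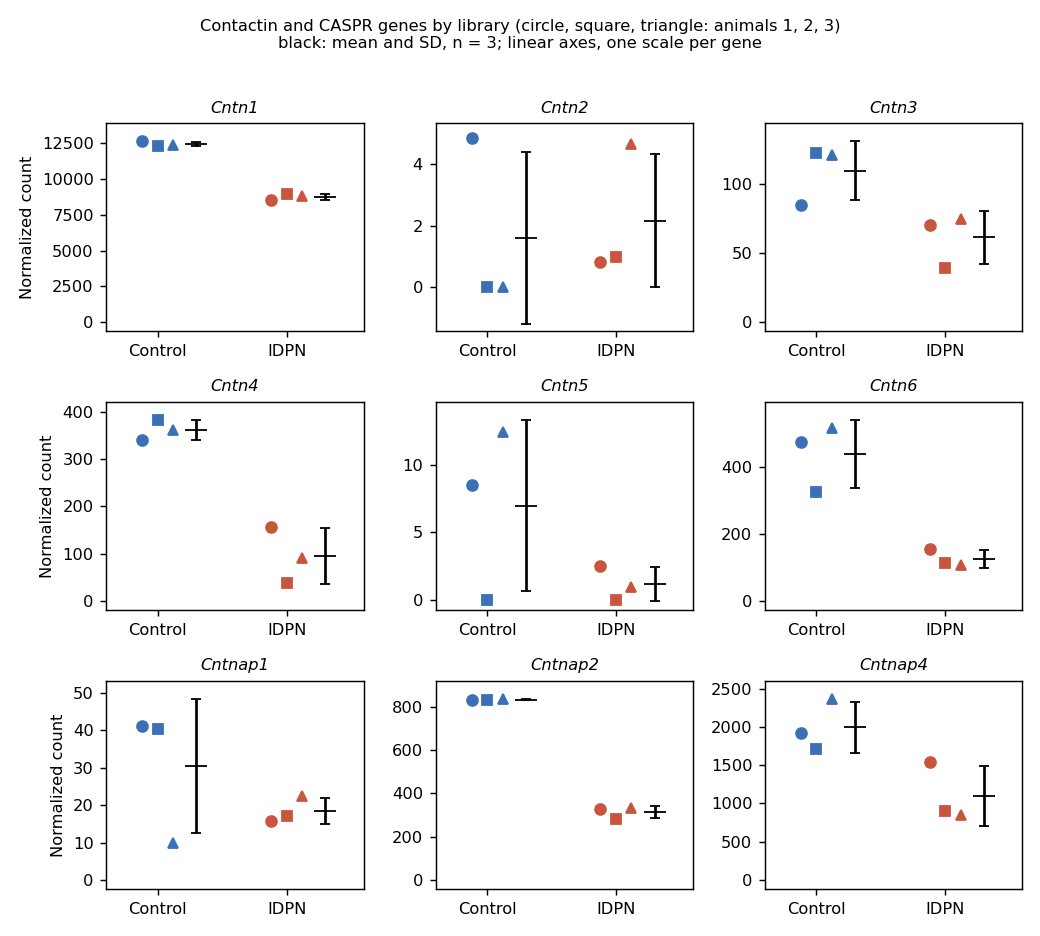
Normalized counts (DESeq2 size factors, linear axes with a scale for each gene) of the 9 genes in 3 Control (blue) and 3 IDPN (red) libraries, with symbols for animals 1 to 3 and the mean and SD in black. Cntn1, Cntn3, Cntn4, Cntn6, Cntnap2 and Cntnap4 show no overlap between groups, while Cntn2, Cntn5 and Cntnap1 overlap at low counts.

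**Figure D2:**
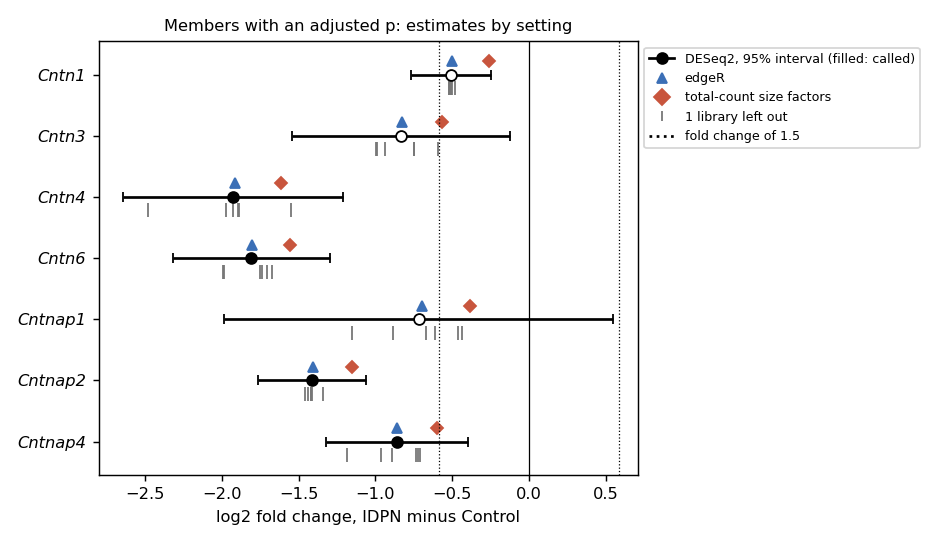
Log2-Fold_Change of IDPN minus Control for the 7 genes with a DESeq2 Padj, with 95% intervals, beside the edgeR estimate, the estimate with total-count size factors and the 6 estimates that leave out 1 library. Estimates of Cntn4, Cntn6 and Cntnap2 lie beyond a fold change of 1.5 (dotted) in every setting shown, and the interval of Cntnap1 spans 0.

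The estimates depend on the scale, since the size factor was lowest for Control 1 (0.825) and highest for IDPN 1 (1.21) while total counts differed little. Total-count size factors moved the median of all genes with a Padj from 0.02 to 0.27, and Cntn4 (−1.61, DESeq2 Padj = 0.00728), Cntn6 (−1.56) and Cntnap2 (−1.15, DESeq2 Padj = 0.000407) remained called lower. Ratios of counts within a library, which no size factor changes, were added after these values had been seen. An exact permutation test of 3 against 3 libraries cannot give a p below 0.1, so the ratios are described without a test.

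For each 1000 counts of Cntn1 in the same library, there were 66.1, 67.4 and 67.4 counts of Cntnap2 (Control 1 to 3) against 38.4, 31.4 and 37.8 (IDPN 1 to 3). Cntn4 had 26.9, 31.0 and 29.1 (Control 1 to 3) against 18.3, 4.27 and 10.3 (IDPN 1 to 3). Cntn6 had 37.6, 26.3 and 41.6 (Control 1 to 3) against 18.3, 12.7 and 12.1 (IDPN 1 to 3). All 3 were lower against Cntn1 after IDPN, with no overlap between the groups. Cntnap4 overlapped, at 152, 138 and 190 (Control 1 to 3) against 181, 101 and 96.5 (IDPN 1 to 3). On the per-length scale, Cntn1 accordingly made up 91.2% ± 0.919 (Control) against 95.9% ± 1.37 (IDPN; SD, n = 3 each) of the summed contactin level, without overlap. Cntnap4 made up 78.3% ± 3.24 and 83.0% ± 4.42 of the level of the 3 CASPR genes, with overlap.

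Markers of several cell types were set beside these genes. Of all genes with a Padj, 3.42% were called lower and 2.32% higher. Of the 9 HC markers, DESeq2 called 6 lower and 0 higher. Their summed normalized counts ran from 25383 to 26635 in Control and from 15967 to 17467 in IDPN. The width of that gap depends on the size factors. In raw counts Pou4f3 stayed apart, at 5534 to 6568 in Control and 3248 to 3752 in IDPN. Myo6 overlapped, at 5313 to 7615 in Control and 5606 to 7135 in IDPN. Of the 5 type I HC markers, Kcna10 among them, 4 were called lower, and of the 4 type II HC markers 1 was. Of the 10 afferent neuron markers with a Padj, 4 were called lower, and the list summed to 6771 to 6908 in Control and 4322 to 4579 in IDPN. Those 4 were the neurofilament genes Nefl and Nefm and the synaptic vesicle release genes Snap25 and Syt1. Of the 10, 9 had a negative log2-Fold_Change and 1, Prph, a positive one. Prph had 4.85 to 20.5 normalized counts in Control and 30.1 to 46.3 in IDPN, without overlap, and was not called (1.51, DESeq2 Padj = 0.148). Schwann cell and myelin markers, whose cells face the axon at the paranode, summed to between 131084 and 268057 in Control and 115698 and 139413 in IDPN, with 0 of 12 called lower and 1, Sox10, called higher. Of the 8 supporting cell markers 1, Gjb6, was called lower, and their sum ran from 312179 to 443256 in Control and from 221093 to 263765 in IDPN, without overlap. Of the 4 endothelial markers 1 was called lower, and of the 6 stromal and 6 macrophage markers 0 were called. All 6 stromal markers had a positive log2-Fold_Change.

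Measured against the summed counts of the HC markers of the same library, 3 members stayed without overlap between the groups. Abundant markers weigh most in that sum. Single HC markers had a log2-Fold_Change from 0.01 (Myo7a) to −1.21 (Gfi1), and type I HC markers from −0.53 (Spp1) to −1.98 (Ocm). The ratios therefore do not place the 3 members below every HC gene. For each 1000 counts of the 9 HC markers, Cntnap2 had 31.4 to 32.9 counts in Control and 17.5 to 20.3 in IDPN. Cntn4 had 13.4 to 14.9 and 2.39 to 8.91, and Cntn6 had 12.7 to 19.4 and 6.49 to 8.91. Cntn1 overlapped, at 466 to 497 in Control and 487 to 559 in IDPN, as did Cntnap4, at 66.6 to 88.7 and 51.8 to 88.4. The same 3 members were also lower without overlap for each 1000 counts of the afferent neuron list. There Cntnap2 had 121 to 124 counts in Control and 61.2 to 75.6 in IDPN. Nefl, Nefm, Isl1, Snap25 and Syt1 make up most of that sum, so the ratio is not a measure against afferent neurons as a whole. Cntn1 was slightly higher for each 1000 counts of the afferent neuron list, at 1799 to 1832 in Control and 1950 to 1974 in IDPN. The part of these cell types in the results was not tested.

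**Figure D3:**
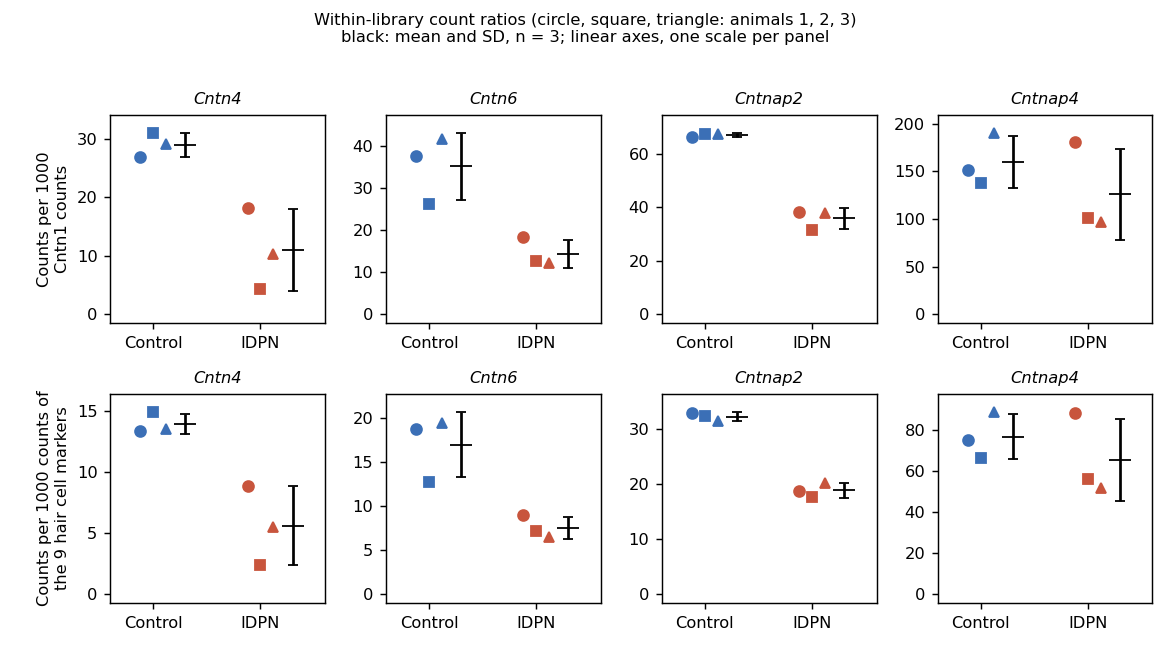
Counts of Cntn4, Cntn6, Cntnap2 and Cntnap4 for each 1000 counts of Cntn1 (upper row) and of the 9 HC markers (lower row) in the same library, with linear axes, 3 Control (blue) and 3 IDPN (red) libraries, and the mean and SD in black. The IDPN points of Cntn4, Cntn6 and Cntnap2 all lie under the Control points in both rows, and Cntnap4 overlaps.

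Genes whose proteins meet contactins or CASPR proteins were examined as a list of 38, of which 33 had a Padj. DESeq2 called 4 lower and 1 higher, against 3.42% and 2.32% of all genes. With edgeR 3 were lower and 0 higher, against 2.19% and 1.02%. At an unadjusted p under 0.05 each tool gave 7 lower and 3 higher. Over all genes those shares were 9.15% and 7.77% with DESeq2 and 9.12% and 8.57% with edgeR. Total-count size factors gave 3 lower and 5 higher at that p, against 2.96% and 15.8% of all genes. The median log2-Fold_Change was −0.15, with 21 negative and 12 positive, against a median of 0.02 over all genes with a Padj. No other CASPR gene was called. Cntnap3 overlapped between groups (0.18, DESeq2 Padj = 0.896), Cntnap5a had 0 to 3 counts a library, and Cntnap5b and Cntnap5c had none.

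Of the 11 axonal adhesion and scaffold genes, 10 had a Padj and 1 was called. Chl1, an adhesion protein of the L1 family, had normalized counts of 1418, 1237 and 1495 (Control 1 to 3) against 838, 797 and 613 (IDPN 1 to 3), and its log2-Fold_Change was −0.88 (SE 0.18; DESeq2 Padj = 0.000118). The groups did not overlap, and the call was lost with total-count size factors (−0.64, DESeq2 Padj = 0.123) and in the test against a fold of 1.5. Nfasc, which encodes neurofascin, overlapped between groups (−0.31, 95% interval −0.71 to 0.08, DESeq2 Padj = 0.459). Epb41l3, the protein 4.1B that links CASPR proteins to the cytoskeleton, had 1234 to 1354 normalized counts in Control and 949 to 1161 in IDPN and was not called (−0.26, DESeq2 Padj = 0.455). The ankyrins Ank2 and Ank3 and the spectrins Sptan1 and Sptbn1 overlapped between groups.

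Of the 14 genes of potassium channel complexes, 13 had a Padj and 3 were called lower. Kcna10, the channel known from HCs and the calyceal junction, had normalized counts of 24378, 21503 and 20788 (Control 1 to 3) against 12065, 12240 and 8150 (IDPN 1 to 3) (log2-Fold_Change −1.04, SE 0.18, DESeq2 Padj = 2.03e-06). Adam22, a receptor of juxtaparanodal complexes, had 661, 712 and 783 (Control 1 to 3) against 473, 329 and 370 (IDPN 1 to 3) (−0.88, SE 0.20, DESeq2 Padj = 0.000700). Neither gene overlapped between groups, and Adam22 lost its call with total-count size factors (−0.62, DESeq2 Padj = 0.203). Both Kcna10 and Adam22 lost it in the test against a fold of 1.5. Dlg2, the scaffold PSD-93, had 349, 290 and 440 (Control 1 to 3) against 259, 130 and 179 (IDPN 1 to 3) (−0.92, SE 0.28, DESeq2 Padj = 0.0229). Its call was lost without Control 1 (−0.95, DESeq2 Padj = 0.0980), Control 3 (−0.75, 0.129), IDPN 2 (−0.71, 0.150) or IDPN 3 (−0.89, 0.142). It was also lost with total-count size factors (−0.66, DESeq2 Padj = 0.297), with edgeR (−0.92, adjusted p = 0.108) and in the test against a fold of 1.5. The channels that CASPR2 clusters on axons were not called, with Kcna1 at −0.43 (95% interval −0.92 to 0.06, DESeq2 Padj = 0.396) and Kcna2 at 0.23 (−0.21 to 0.67, DESeq2 Padj = 0.682).

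Of the 9 contactin ligands and receptors, 1 was called. Notch1, the receptor that contactin-1 and contactin-6 can engage, was called higher (0.70, DESeq2 Padj = 0.0480), and not without Control 1 (DESeq2 Padj = 0.258), Control 2 (0.217) or IDPN 2 (0.355), which held 6897 normalized counts against 3654 and 3635 in the other IDPN libraries. Ptprz1, a receptor phosphatase that binds contactin-1, had 1671 to 2117 normalized counts in Control and 1218 to 1442 in IDPN without passing (−0.50, 95% interval −0.84 to −0.16, DESeq2 Padj = 0.0567). Ptprg, the receptor phosphatase that binds contactin-3 to contactin-6, overlapped between groups (−0.21, DESeq2 Padj = 0.722), and so did App (−0.17, DESeq2 Padj = 0.707).

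**Figure D4:**
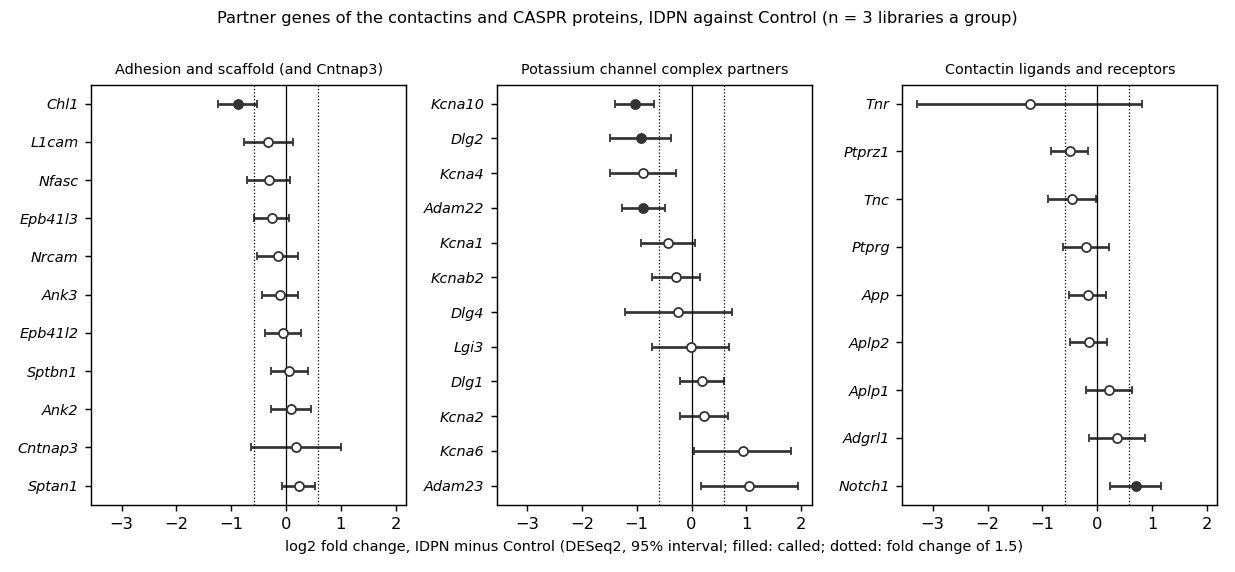
Log2-Fold_Change of IDPN minus Control with 95% intervals (DESeq2) for partner genes with a Padj, in panels for adhesion and scaffold genes with Cntnap3, potassium channel complexes, and contactin ligands and receptors. Filled points mark the called genes, which are Chl1, Kcna10, Dlg2 and Adam22 on the lower side and Notch1 on the higher side.

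For the 2 most abundant members, the genes of nearest profile were sought among 11167 named genes (mean of at least 100 normalized counts), as the smallest root mean square difference of centred log2 values over the 6 libraries. For Cntn1 they were Tril (0.0459), Uxs1 (0.0467) and Magi1 (0.0487). For Cntnap4 they were Myo3b (0.0688), Esyt3 (0.0841) and Slc9a9 (0.0842). Myo3b shared with Cntnap4 an IDPN 1 value (152 normalized counts) above IDPN 2 and IDPN 3 (89.4 and 75.6), and the groups of Myo3b did not overlap. The distances are a description over 6 libraries, and nothing follows from them about function.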

How the data were processed

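The authors aligned 2 × 76 bp reads of SMART-seq2 libraries to GRCm38 with STAR and deposited RSEM estimated counts per gene (GENCODE M15), written as whole numbers. RSEM shares reads between similar genes, and the protocol does not mark strand. Total deposited counts ran from 40474847 to 43566332 per library. No molecular identifiers were used. The 95% intervals are from the DESeq2 fit and include the spread between animals.

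DESeq2 1.42.0 (R 4.3.3; Wald test, median-of-ratios size factors, Benjamini-Hochberg adjustment over all genes) compared IDPN with Control, after the study's methods (Padj under 0.05, fold change above 1.5). edgeR 4.0.16 (quasi-likelihood, TMM, low-count filter) was the first alternative. Both were tested on simulated data. Levels per length used GENCODE M21 exon lengths, and positions are from the same release.

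All 9 genes are named, as are partner genes that were called, Nfasc, Epb41l3, Kcna1, Kcna2, Kcna10 and Ptprz1 whatever their result, and the 3 nearest profiles of the 2 most abundant members. The other partner and marker genes were chosen after their values were seen. The members and lists were chosen with earlier results of these data known. The values of 1 gene of the partner list are not reported here.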

Additional observations from a re-analysis of the deposited data

How the results depend on the processing

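Across 16 alternatives, Cntn4 (log2-Fold_Change −2.48 to −1.55), Cntn6 (−1.99 to −1.56) and Cntnap2 (−1.46 to −1.15) kept their call. Between 3 and 4 members were called lower and 0 higher, and Cntnap4 was the one lost. Cntn2, with at most 5 counts a library, reversed when single libraries were left out (−0.80 to 3.53). Of the partner genes, 1 was called lower with total-count size factors and 0 in a test against a fold of 1.5. The partner gene called higher, Notch1, was lost (0 called) with edgeR, the filter of 10 counts in 3 libraries, independent filtering off, the test against a fold of 1.5, length offsets and GC offsets, and 0 to 1 were called higher when single libraries were left out. The cause of these losses was not tested. Over all genes, total-count size factors gave 214 lower and 609 higher calls against 604 and 410, and edgeR gave 357 and 166. No paired analysis was made, since each library came from a different animal and the labels name no pairs. Cntn2 and Cntn5, with 0 to 14 counts a library, are too low to compare at this depth, and Cntnap1 varied widely between Control libraries.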
